A study of Rattus norvegicus with 27 samples.

Results

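Glucocorticoid-responsive genes were examined in rat hearts after long exposure to airborne particles of different size. The list held 8 genes, Fkbp5, Tsc22d3, Sgk1, Klf9, Cebpd, Dusp1, Cdkn1a and Errfi1, and a probe was a member where its annotated symbol was one of them. Of the 8 genes, 6 had 1 probe each on the array, among 12978 named genes in all, and Fkbp5 and Cebpd had none. Male Fisher 344 rats, aged 4 weeks at the start, were exposed for 3 months to filtered air, coarse particles, fine particles or ultrafine particles, and total RNA of the heart was hybridised to Illumina bead arrays. All groups shared strain, sex, starting age and duration, while the sources used here name no particle source, no dose and no hour at which the hearts were taken. The table held 27 arrays, with 7 in the filtered air group, 6 each in the coarse and fine groups and 8 in the ultrafine group. The labels do not say whether an array is 1 rat or a pool, so the p-values measure the spread between these samples. Levels are the authors' normalized values on a log2 scale, where a difference of 1 is a doubling if the transform was a plain log2.

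Glucocorticoids, of which corticosterone is the main one in rats, bind the glucocorticoid receptor, Nr3c1, which chaperones hold in the cytoplasm until the hormone arrives. The receptor then enters the nucleus, binds DNA and changes the transcription of many genes, some within a short time. In the heart this response touches metabolism, growth signals and inflammation. The members take different places in it. Fkbp5 is a co-chaperone that lowers the receptor's affinity for its hormone, and Tsc22d3, the glucocorticoid-induced leucine zipper GILZ, restrains inflammatory transcription factors. Dusp1 is a phosphatase that switches off MAP kinases, Errfi1 (Mig6) inhibits the EGF receptor, and Cdkn1a (p21) inhibits cyclin-dependent kinases. Sgk1 is a kinase that acts on ion channels and transporters, and Klf9 and Cebpd are transcription factors.

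The promoters of the members were searched for letters that the receptor and other regulators are known to bind, because the members moved partly together and partly with genes of other pathways. RefSeq (GRCr8) gave 11 promoter windows for 7 of the 8 genes, all but Cebpd, each running from 250 bases before to 50 bases after a transcription start. The full glucocorticoid response element, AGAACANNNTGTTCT, was in 0 of these 11 windows and in 0.0149% of all 33469 promoter windows of the rat. One arm of that element alone, TGTTCT, which lies inside the full letters, was also in none of the 11 and in 20.7% of all windows. The cyclic AMP response element TGACGTCA (1.83% of all windows) and the E-box CACGTG (6.42%), the letters bound by clock proteins and others, were found in Dusp1, with their first letters 124 and 107 bases before the start. The letters TATAAA of a TATA box, searched on the gene's strand only, were in 8.8% of all windows. They stood 35 bases before the start of Errfi1, 44 before the third start of Tsc22d3, and 55 and 33 before the first and the third start of Sgk1. All other letters were searched on both strands. Shown are 150 bases before the start of Tsc22d3, Dusp1 and Errfi1, 3 of the 4 members with such letters, 5′ to 3′ on the gene's strand, with these letters in capitals. A match describes the letters only, and the windows without one say nothing of sites elsewhere.
Tsc22d3, from the third start, chrX:109010035-109010184, minus strand: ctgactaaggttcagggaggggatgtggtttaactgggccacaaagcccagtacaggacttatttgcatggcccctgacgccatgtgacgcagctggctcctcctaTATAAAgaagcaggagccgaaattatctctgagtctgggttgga
Dusp1, chr10:17184703-17184852, plus strand: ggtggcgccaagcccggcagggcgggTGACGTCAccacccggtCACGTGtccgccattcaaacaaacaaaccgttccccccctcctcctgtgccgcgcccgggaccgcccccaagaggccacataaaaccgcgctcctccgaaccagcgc
Errfi1, chr5:166606691-166606840, plus strand: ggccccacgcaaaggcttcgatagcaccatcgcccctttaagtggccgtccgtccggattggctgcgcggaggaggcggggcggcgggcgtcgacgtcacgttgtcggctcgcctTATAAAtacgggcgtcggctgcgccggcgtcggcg

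A set of 9 arrays stood apart from the rest. On 8 of them, filtered air 1, coarse 1, 2 and 5, fine 2 and 4, and ultrafine 2 and 7, the mean over 15 measured thymocyte and lymphocyte markers was 6.51 to 9.10, against 5.77 to 6.30 on the 18 arrays left. Cd3d, a T cell marker, was at 7.89 to 12.16 on these 8 arrays and at 5.87 to 7.29 on the 18. Rag1, which cuts receptor genes in developing lymphocytes, was at 7.07 to 11.28 against 5.56 to 6.47. The ninth array, ultrafine 8, was set apart by its low correlation with the others. The mean of 9 cardiomyocyte markers, the check of the labelled tissue, was 11.56 to 11.89 on 23 arrays and 10.70 to 11.10 on coarse 1 and ultrafine 2, 7 and 8. Among the 18 arrays, coarse 6 and ultrafine 5 were high in skeletal muscle markers, at 8.90 and 7.53, and the mean of the adipocyte markers ran from 6.55 to 8.26. In these heart samples, fewer cells of a type and less RNA per cell cannot be told apart. Group comparisons of the members are therefore given over all 27 arrays and over the 18, which left 6 filtered air, 3 coarse, 4 fine and 5 ultrafine arrays.

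Of the 6 members with a probe, 5 were among the 11657 brightest probes, the number the authors kept, whose lowest mean level was 5.79. Cdkn1a, at a mean of 5.76, fell just below. Over 27 arrays the range of the levels was 9.19 to 11.04 for Tsc22d3, 8.80 to 10.58 for Sgk1, 9.32 to 10.86 for Klf9, 9.63 to 11.97 for Dusp1, 6.83 to 7.89 for Errfi1 and 5.49 to 5.92 for Cdkn1a. These ranges correspond to folds of 3.61, 3.44, 2.89, 5.07, 2.08 and 1.35. In the 18 arrays the folds were 2.21, 1.42, 2.89, 2.49, 2.08 and 1.17. The ranges of Tsc22d3, Sgk1, Dusp1 and Cdkn1a were thus narrower without the arrays that stood apart, while those of Klf9 and Errfi1 were the same. The lowest and the highest Tsc22d3 level were on filtered air 1 and ultrafine 8, which both stood apart.

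**Figure D1:**
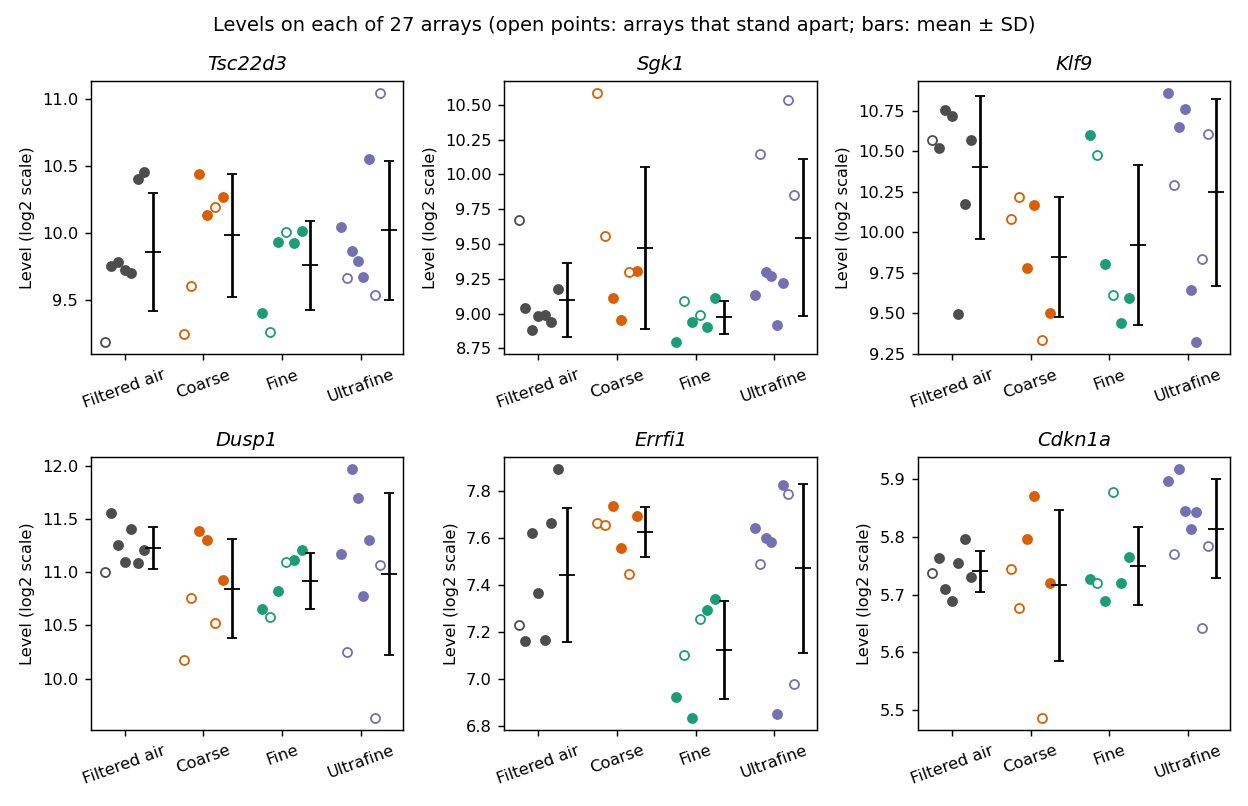
Level of each measured member (log2 scale, 1 panel per gene, axes that do not start at 0) on each of the 27 arrays by exposure group, with the mean ± SD of the group beside the points. Open points are the 9 arrays that stood apart. The highest Sgk1 levels, up to 10.58, and the lowest Dusp1 levels, down to 9.63, are open points, whereas the 6 coarse arrays lie above the 6 fine arrays for Errfi1.

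The first question was whether a particle size changed the members against filtered air, or whether sizes differed from each other. With limma fitted over all kept probes, 0 of the 5 members passed an adjusted p of 0.05 in any of the 6 comparisons or in the test of any difference among the 4 groups, over 27 or over 18 arrays. Calls were rare in the table as a whole. Over 27 arrays they were 0.00858% of the 11657 probes for coarse against filtered air, 0% for fine, 0.0686% for ultrafine, 0.0257% for coarse against fine, 0% for coarse against ultrafine, 0.197% for fine against ultrafine and 0.0944% for any difference. Over 18 arrays the shares were 0.24%, 0%, 0.575%, 0.146%, 0%, 0.463% and 0.515% in the same order. At an unadjusted p under 0.05 the members counted 1, 1, 1, 1, 0, 2 and 1 of 5 over 27 arrays, and 0, 1, 0, 2, 0, 3 and 0 over 18. For all probes the shares at that p were 2.56% to 12.1% over 27 arrays and 5.27% to 11.2% over 18. The exact two-sided permutation test was run for each of the 6 members with a probe alone, Cdkn1a included. It gave a p under 0.05 in 6 of 36 tests over 27 arrays and in 5 of 36 over the 18, before any adjustment. Among the 5 were Cdkn1a in ultrafine against filtered air and in fine against ultrafine. No share of all probes is given for this test, so its counts cannot be set against the table as a whole. The 3 comparisons with filtered air share their control arrays and are not independent.

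In the fine group the members leaned lower. Over 27 arrays all 5 differences of fine from filtered air were negative, with a median of -0.32 beside 0.00 for all probes, and all 5 of fine from ultrafine were negative, with a median of -0.32. Over 18 arrays the medians were -0.32 and -0.39, again with 0 of 5 positive. These values are a description of 5 genes, with no test of the list. For coarse and ultrafine particles against filtered air, 3 of 5 differences were positive over 27 arrays, with medians of 0.12 and 0.03. When the arrays were centred on cardiomyocyte markers, which moved the median of all probes by 0.32 in ultrafine against filtered air, the differences of Dusp1 and Klf9 there turned from -0.25 and -0.16 to 0.08 and 0.17.

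**Figure D2:**
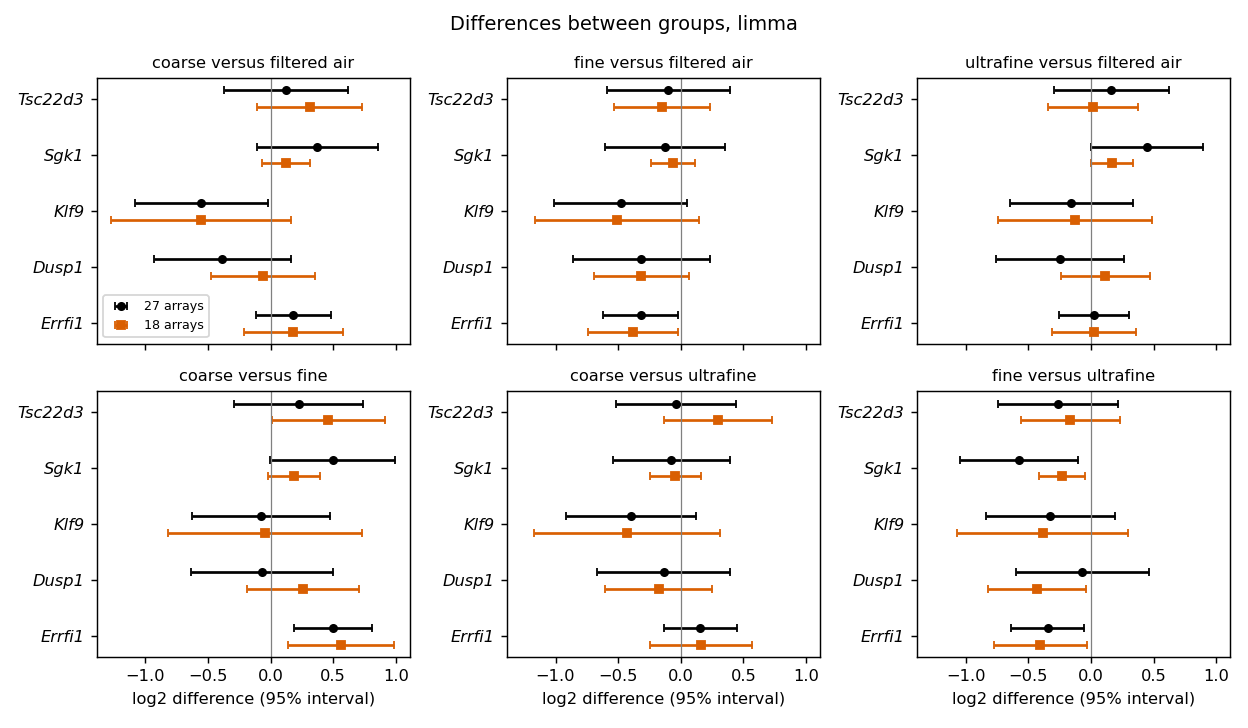
Difference between group means (log2) of the 5 members kept, with the 95% interval of limma, in each of the 6 comparisons, for 27 arrays (black circles) and 18 arrays (orange squares). Most intervals cross 0. For Errfi1 in coarse against fine particles both intervals lie above 0, from 0.19 to 0.81 over 27 arrays and from 0.14 to 0.99 over 18.

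Errfi1, the feedback inhibitor of the EGF receptor, differed most between coarse and fine particles. Its level had a lowest, median and highest value of 7.45, 7.66 and 7.73 in the coarse group and of 6.83, 7.18 and 7.34 in the fine group. All 6 coarse arrays were above all 6 fine arrays, and 0.961% of all probes likewise had no overlap between these groups. In filtered air the values were 7.16, 7.37 and 7.89, and with ultrafine particles 6.85, 7.59 and 7.83, so that both of these groups overlapped with coarse and with fine. The coarse minus fine difference was 0.50 (SE 0.15, 1.41-fold, limma p = 0.00277, adjusted p = 0.736), and the exact two-sided permutation p was 0.00216, the smallest that 6 against 6 arrays allow. Over the 18 arrays the coarse levels were 7.73, 7.56 and 7.69 and the fine levels 6.92, 6.83, 7.29 and 7.34. The 3 coarse arrays again lay above the 4 fine ones, with a difference of 0.56 (SE 0.20, limma adjusted p = 0.41). The exact permutation p was 0.0286, again the smallest possible. At these small numbers the groups did not overlap, in either direction, for 14.7% of all probes.

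Errfi1 was also lowest in the fine group when set against the others. Fine minus filtered air was -0.32 (SE 0.15, adjusted p = 0.824 in limma), and fine minus ultrafine was -0.35 (SE 0.14, adjusted p = 0.301). Neither passed the test, and in both the groups overlapped. With array weights, which count less on arrays that deviate, limma called Errfi1 in coarse against fine (0.49, adjusted p = 0.0444) and in fine against ultrafine (-0.49, adjusted p = 0.0129). That setting called 55 and 815 probes of the table in these comparisons.

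Tsc22d3, the glucocorticoid-induced leucine zipper, had levels that overlapped across the 4 groups over all arrays. Its lowest, median and highest levels were 9.19, 9.75 and 10.46 in filtered air, 9.25, 10.17 and 10.44 with coarse, 9.27, 9.93 and 10.02 with fine, and 9.54, 9.83 and 11.04 with ultrafine particles. The highest level was on ultrafine 8, the array set apart by its correlation, and without it the 7 other ultrafine arrays ended at 10.55, so that all groups overlapped. Over the 18 arrays the coarse levels of 10.44, 10.14 and 10.27 lay above the fine levels of 9.41, 9.94, 9.93 and 10.02. These groups did not overlap, in either direction, for 14.7% of all probes. The coarse minus fine difference of Tsc22d3 was 0.46 (SE 0.22, limma p = 0.0463, adjusted p = 0.507), with an exact two-sided permutation p of 0.0286, the smallest possible. It was 0.22 (SE 0.25, limma adjusted p = 0.822) over 27 arrays.

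Dusp1, the MAP kinase phosphatase, was lowest where lymphocyte markers were highest. Its lowest, median and highest levels were 11.00, 11.21 and 11.56 in filtered air, 10.17, 10.84 and 11.39 with coarse, 10.58, 10.96 and 11.21 with fine, and 9.63, 11.12 and 11.97 with ultrafine particles. The 3 lowest levels, 9.63, 10.17 and 10.25, were on ultrafine 7, coarse 1 and ultrafine 2, the 3 arrays with the highest lymphocyte marker means. Against filtered air the differences were -0.38 (SE 0.27) for coarse, -0.32 (SE 0.27) for fine and -0.25 (SE 0.25) for ultrafine particles, with adjusted p of 0.985, 0.933 and 0.894. Over 18 arrays they were -0.06, -0.32 and 0.12, so the value for fine particles was as large without the arrays apart and the other two were not. The exact two-sided permutation p of fine against filtered air was 0.0332 over all arrays. Fine minus ultrafine was -0.07 over 27 arrays and -0.43 (SE 0.19, adjusted p = 0.394) over 18. The part of lymphocytes in these levels was not tested.

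Sgk1, the serum and glucocorticoid-regulated kinase, had a long upper tail over the 27 arrays. It was at 9.56, 9.67, 9.85, 10.15, 10.53 and 10.58 on 6 arrays and at 8.80 to 9.31 on the other 21. The 6 were filtered air 1, coarse 1 and 2, and ultrafine 2 and 7, which were high in lymphocyte markers, and ultrafine 8, which was not. Coarse 5, fine 2 and fine 4, the other arrays high in those markers, had Sgk1 at 9.30, 9.09 and 8.99, below those 6. The lymphocyte mean of these 3 was 6.55, 7.20 and 6.51, below the 7.99 to 9.10 of the 5 with high Sgk1. The part of these cells, or of the lower cardiomyocyte share on some of these arrays, in the Sgk1 level was not tested.

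The group differences of Sgk1 moved with those arrays. Its lowest, median and highest levels were 8.88, 8.99 and 9.67 in filtered air, 8.96, 9.30 and 10.58 with coarse, 8.80, 8.97 and 9.11 with fine, and 8.92, 9.29 and 10.53 with ultrafine particles. Fine minus ultrafine was -0.57 (SE 0.23, adjusted p = 0.286 in limma) over 27 arrays and -0.23 (SE 0.09, adjusted p = 0.306) over the 18, where the fine levels were 8.80, 8.94, 8.91 and 9.11 and the ultrafine levels 9.14, 9.30, 9.27, 8.92 and 9.22. The groups overlapped in both. Ultrafine minus filtered air was 0.45 (SE 0.22, adjusted p = 0.883) over 27 arrays and 0.17 (SE 0.08, adjusted p = 0.57) over 18, and coarse minus fine was 0.50 (SE 0.24, adjusted p = 0.738) and 0.19 (SE 0.10, adjusted p = 0.537).

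**Figure D3:**
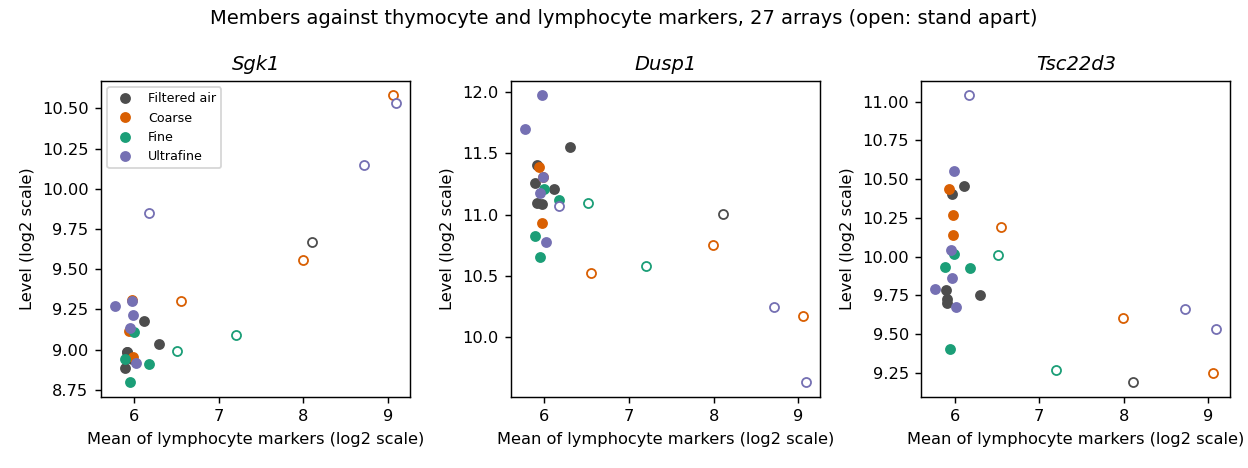
Level of Sgk1, Dusp1 and Tsc22d3 (log2 scale) against the mean of the thymocyte and lymphocyte markers (log2 scale) on each of 27 arrays, coloured by group, with open points for the arrays that stood apart. The 5 arrays with a marker mean of 7.99 or more have Sgk1 at 9.56 or more, and the 3 with the highest means have the lowest Dusp1.

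Klf9, a Krüppel-like transcription factor, had the widest spread of the 5 members between arrays of a group once the arrays that stood apart were left out. Its lowest, median and highest levels were 9.50, 10.57 and 10.75 in filtered air, 9.34, 9.93 and 10.22 with coarse, 9.44, 9.71 and 10.60 with fine, and 9.32, 10.45 and 10.86 with ultrafine particles. All groups overlapped. Coarse minus filtered air was -0.55 (SE 0.26, 1.47-fold, limma p = 0.042, adjusted p = 0.985), with an exact two-sided permutation p of 0.0385, and fine minus filtered air was -0.48 (SE 0.26, adjusted p = 0.872). Both were as large in the 18 arrays, at -0.56 (SE 0.34, adjusted p = 0.809) and -0.51 (SE 0.31, adjusted p = 0.625), and neither passed. The ultrafine arrays lay either at 9.32 to 9.83 or at 10.29 to 10.86, with 3 arrays, ultrafine 5, 6 and 7, in the lower and 5 in the higher range. Low levels on these numbers were not particular to ultrafine particles. Number 5 was at 9.50 in filtered air, 9.34 with coarse and 9.44 with fine particles. Number 6 was at 9.50 with coarse and 9.59 with fine particles, while filtered air 6 and 7 were at 10.175 and 10.57.

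Cdkn1a, the cell cycle inhibitor p21 and a target of p53 as well as of the glucocorticoid receptor, was dim and stood below the brightness filter. Its median level was 5.74 in filtered air, 5.73 with coarse, 5.72 with fine and 5.83 with ultrafine particles, with all 27 values within 5.49 to 5.92. In a fit on all probes with no filter, ultrafine minus filtered air was 0.07 (adjusted p = 0.941) over 27 arrays and 0.12 (SE 0.04, adjusted p = 0.388) over 18, in limma. Fine minus ultrafine was -0.06 (adjusted p = 0.737) and -0.14 (SE 0.04, adjusted p = 0.255). Over the 18 arrays the ultrafine levels, 5.81 to 5.92, lay above those of filtered air, up to 5.80, and fine, up to 5.76. The exact two-sided permutation p was 0.00433 against filtered air and 0.00794 against fine, and 0.0563 and 0.155 over 27 arrays. Among the kept probes 1.3% and 3.94% had no overlap in these comparisons over 18 arrays. Signal over background was not analysed here.

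Most members varied more between arrays of the same group than the typical probe did. In the 18 arrays the within-group SD was 0.55 for Klf9, 0.32 for Tsc22d3, 0.31 for Dusp1 and 0.29 for Errfi1, against a median of 0.12 over all kept probes. This placed Klf9 at the percentile 99.6 of all probes, and Tsc22d3, Dusp1 and Errfi1 at 96.4, 96.3 and 95.5. Among 501 probes of like brightness their percentiles were 99.4, 90.0, 91.0 and 91.2. The within-group SD includes any difference that went with the array number. Sgk1 had a within-group SD of 0.14, at the percentile 60.4 of all probes and 28.9 of those of like brightness. Over 27 arrays the SD of the 5 members was 0.27 to 0.50, beside a median of 0.17, and among probes of like brightness the 5 stood at percentiles of 58.1 to 75.4.

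The second question was whether the members rose and fell together among arrays of a group. After each group mean was subtracted, the levels of the 10 pairs of members were correlated over arrays, with two-sided permutation tests within groups and adjustment over the 10 pairs. These tests, here and for the other lists below, treated the arrays of a group as exchangeable and took no account of the array numbers. Same-numbered arrays of different groups were more alike by the median (r = 0.34 against 0.0083), which limits these p-values. Over the 18 arrays Tsc22d3 and Errfi1 had r = 0.72 (permutation p = 0.00749, adjusted p = 0.0749) and rho = 0.79 (p = 0.00056, adjusted p = 0.0056), so the pair passed by rank and not by Pearson's r. Without the 2 arrays farthest from the median of Tsc22d3, r was 0.61, and it stayed between 0.66 and 0.79 when each array was left out. Over all 27 arrays it was 0.15. The other 9 pairs did not pass over the 18 arrays. Sgk1 with Errfi1 had r = 0.57 (permutation p = 0.0267, adjusted p = 0.133), Klf9 had r between -0.35 and 0.15 with the other 4 members, and Tsc22d3 with Dusp1 had 0.02. Over all 27 arrays Sgk1 with Dusp1 had r = -0.69 (permutation p = 0.00165, adjusted p = 0.0165) and rho = -0.53 (permutation p = 0.015, adjusted p = 0.0976). That pair passed by Pearson's r and not by rank, and r was -0.48 without the 2 farthest arrays. The 6 highest Sgk1 levels were all on arrays that stood apart.

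The same measure was taken between the 5 members and the kept genes of the other lists, 690 pairs in all, with p-values adjusted over the 690. Over the 18 arrays 29 pairs (4.2%) passed by Pearson's r, 22 of them also by rank, and all 29 kept their sign within the 18 without the 2 farthest arrays and when any 1 array was left out. Of the 29, 14 belonged to Tsc22d3, 5 to Klf9, 5 to Errfi1, 3 to Dusp1 and 2 to Sgk1. Tsc22d3 passed with 4 of 22 other glucocorticoid targets, 3 of 9 clock genes and 2 of 9 receptor chaperones and coregulators. It also passed with 1 of 7 macrophage, 1 of 7 fibroblast and 1 of 6 endothelial markers, 1 of 11 partners and 1 of 17 immediate early genes. With the remaining lists it passed with none. No share of all probes is given, so these counts cannot be set against the table as a whole. Over 27 arrays 205 pairs (29.71%) passed, and 24 of the 29 had the same sign there. The sign turned over 27 arrays for Tsc22d3 with Myc, Ptgds and Tie1, for Dusp1 with Egr1 and for Sgk1 with Ier3. A correlation over arrays says that levels moved together and not which gene acts on which.

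Tsc22d3 moved with 3 of the 9 clock genes kept. Its closest partner in the lists was Per2, a core repressor of the circadian clock, with r = 0.93 and rho = 0.92 over the 18 arrays (permutation p = 0.00034, adjusted p = 0.0335). In filtered air Tsc22d3 was at 10.40 and 10.46 on arrays 6 and 7, where Per2 was at 9.47 and 9.82. On the other 4 filtered air arrays of the 18, Tsc22d3 was at 9.70 to 9.78 and Per2 at 8.49 to 8.58. Both genes were high on the same 2 arrays, with no value in between. The correlation was 0.89 without the 2 farthest arrays, between 0.91 and 0.96 when each array was left out, and 0.72 over all 27 arrays.

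Other clock genes stood beside it with both signs. Cry2, a partner of the Per proteins, had r = 0.81 with Tsc22d3 (permutation p = 0.00071, adjusted p = 0.0402). Nr1d1 (REV-ERB alpha), a repressor of the clock's activating arm, had r = -0.76 (permutation p = 0.00122, adjusted p = 0.0402), which was -0.07 over all 27 arrays. Of the 9 clock genes kept, 3 passed with Tsc22d3 and 0 with each of the other 4 members. Those that did not pass with Tsc22d3 were Bhlhe40 (0.53), Per3 (0.36), Dbp (0.08), Cry1 (-0.03), Bmal1 (-0.13) and Tef (-0.22). Errfi1 had values of the same sign that did not pass, 0.69 with Per2, 0.72 with Cry2 and -0.72 with Nr1d1 (adjusted p = 0.0934, 0.0802 and 0.0836). Klf9 had -0.32 with Per2 (adjusted p = 0.534).

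Of the 22 kept genes among the other glucocorticoid targets, 4 passed with Tsc22d3, 3 with a positive and 1 with a negative sign. These were Sesn1 (sestrin 1, a stress-response gene, r = 0.85), Cebpb (a transcription factor, 0.76) and Sult1a1 (a sulfotransferase, 0.73), with adjusted p of 0.0235, 0.0459 and 0.0445, and Ptgds (prostaglandin D synthase, -0.60, adjusted p = 0.0402), whose sign turned to 0.34 over all 27 arrays. Sesn1 kept r = 0.90 over 27 arrays. Pdk4, the kinase that shuts off pyruvate dehydrogenase, had r = 0.72 (permutation p = 0.00234, adjusted p = 0.0538). Among markers of other cell types, Mrc1 of macrophages (0.83) and Lum of fibroblasts (0.71) passed with Tsc22d3 with a positive sign and Tie1 of the endothelium (-0.76, but 0.35 over 27 arrays) with a negative one. Whether the makeup of the tissue had a part in these values was not tested. The remaining partners of Tsc22d3 were Bag1 (-0.80), Ncoa1 (-0.73), Nedd4 (0.75) and Myc (0.76, but -0.28 over 27 arrays).

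Dusp1 moved with some of the immediate early genes, which cells switch on within minutes of a stimulus and of which Dusp1 is itself one. Of 17 such genes kept, 3 passed, and 0 of the genes of every other list did. Among those that did not pass, Atf3 (0.67) and Klf4 (0.59) had positive values over 18 arrays. Gadd45b (-0.21), Egr3 (-0.13), Nr4a3 (-0.11) and Egr2 (-0.07) had negative ones. Ccn1, a matrix protein, had r = 0.92 and rho = 0.92 with Dusp1 over 18 arrays (permutation p = 1e-05, the smallest that the resamples can give, adjusted p = 0.0069), and r was 0.86 over 27. Dusp1 was at 11.97 and 11.70 on ultrafine 3 and 4, where Ccn1 was at 8.66 and 8.51, and at 10.77 on ultrafine 5, where Ccn1 was at 7.57. Junb, a subunit of the AP-1 transcription factor, had r = 0.75 (adjusted p = 0.0445). Egr1, a zinc finger transcription factor, had r = 0.77 (adjusted p = 0.0445) over 18 arrays and -0.17 over 27. Fos had r = 0.78 and did not pass (adjusted p = 0.0802).

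**Figure D4:**
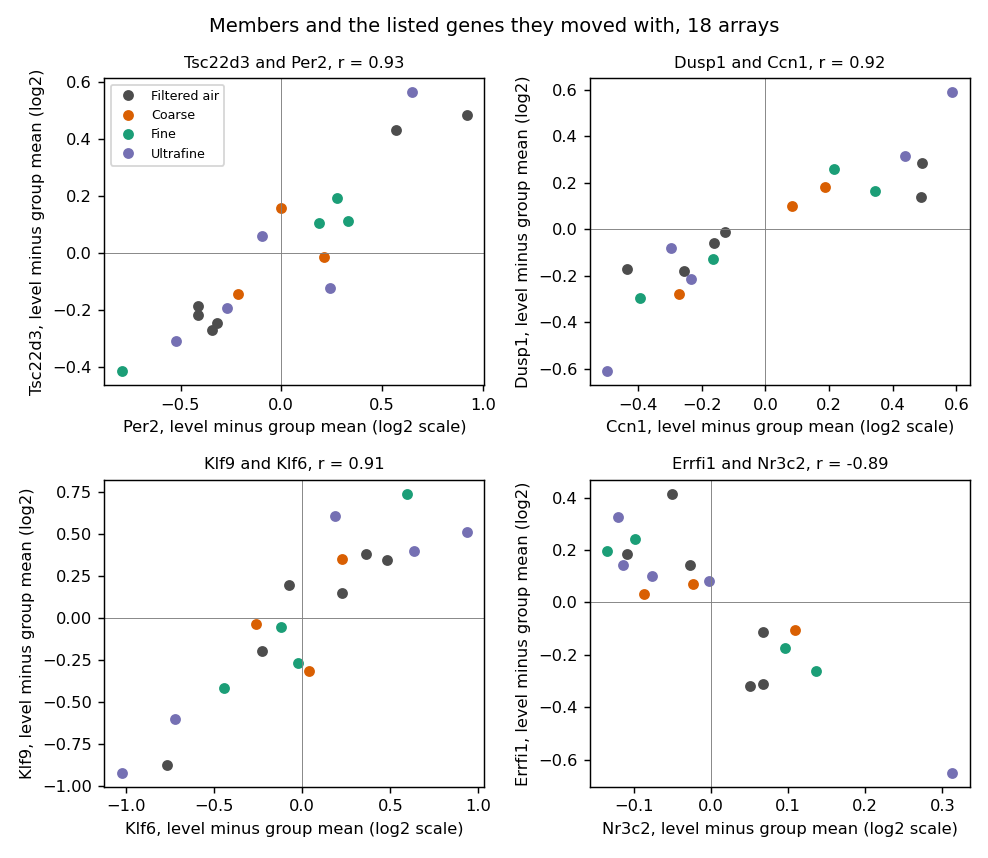
Level minus group mean (log2 scale) of 4 members against 1 gene each of the other lists on the 18 arrays, coloured by group. The points of Tsc22d3 against Per2 (r = 0.93), Dusp1 against Ccn1 (0.92) and Klf9 against Klf6 (0.91) run upward, and those of Errfi1 against Nr3c2 (-0.89) run downward, with ultrafine 5 at the far end.

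Klf9 moved with another set of genes. Its closest partner was Klf6, a Krüppel-like factor of the immediate early list, with r = 0.91 and rho = 0.87 over 18 arrays (permutation p = 0.00015, adjusted p = 0.0235) and r = 0.85 over 27. In the ultrafine group Klf9 and Klf6 were at 10.76 and 8.71 on array 4 and at 9.32 and 6.74 on array 6. Both genes were higher on number 1 than on number 5 in all 4 groups. In filtered air, coarse, fine and ultrafine, Klf9 was at 10.57, 10.08, 10.60 and 10.86 on number 1. On number 5 it was at 9.50, 9.34, 9.44 and 9.64. Klf6 was at 8.49, 8.20, 8.18 and 7.96 on number 1 and at 7.27, 6.79, 7.14 and 7.04 on number 5. The permutation p took no account of these numbers. Ncor1, a corepressor of nuclear receptors, had r = 0.84 (adjusted p = 0.0235), and Gsk3b, a kinase, had 0.76 (adjusted p = 0.0336). Col3a1, a fibroblast collagen (-0.74), and Nrip1, another corepressor (-0.71), ran the other way, with adjusted p of 0.0445 and 0.0459. None of the 22 other glucocorticoid targets passed with Klf9.

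Errfi1 ran against the mineralocorticoid receptor Nr3c2, which binds glucocorticoids too. The correlation was r = -0.89 and rho = -0.83 over 18 arrays (permutation p = 0.00013, adjusted p = 0.0235), -0.83 without the 2 farthest arrays, -0.80 without ultrafine 5 and -0.64 over all 27. Nr3c2 was dim, at 6.27 to 6.73 on the 18 arrays, with the highest value on ultrafine 5, where Errfi1 was at 6.85. Bag1, a co-chaperone, had r = -0.85 with Errfi1 (adjusted p = 0.0402), and it ran against Tsc22d3 as well. The other partners of Errfi1 were Myc (0.73), the ubiquitin ligase Nedd4 (0.69, but 0.01 over 27 arrays) and Tie1 (-0.69), and all 3 passed with Tsc22d3 with the same sign. Sgk1 had 2 partners, Ier3 (0.74) and Aen (0.78), both with an adjusted p of 0.0402, and the sign of Ier3 turned over 27 arrays.

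**Figure D5:**
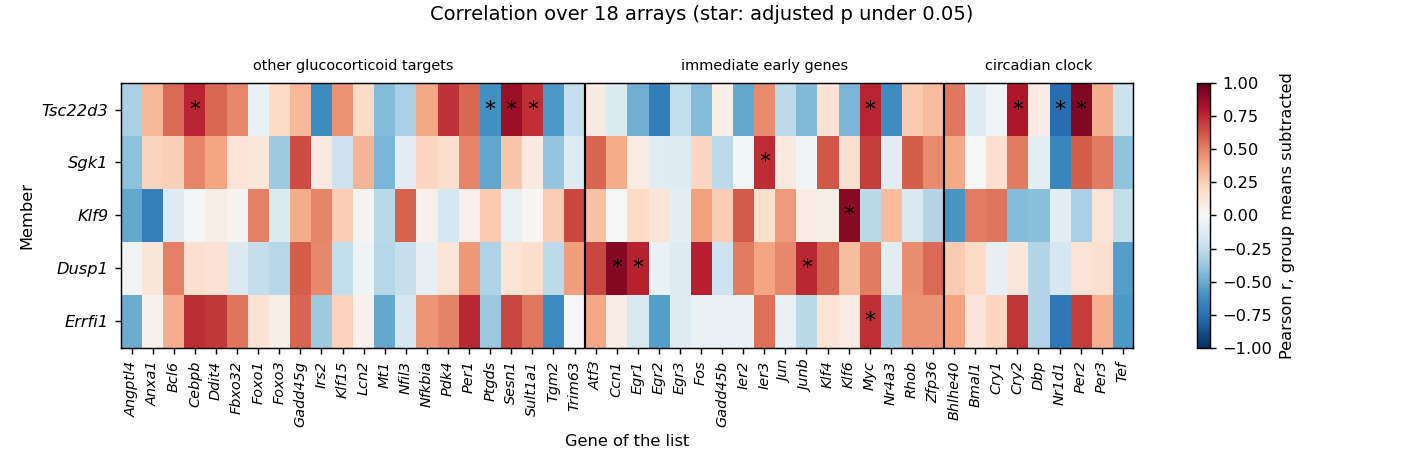
Pearson r, with group means subtracted, between the 5 members (rows) and the kept genes of 3 lists (columns) over 18 arrays, from -1 (blue) to 1 (red), with a star where the p adjusted over 690 pairs was under 0.05. Tsc22d3 has 4 stars among the other glucocorticoid targets, 3 among the clock genes and 1 at Myc. Dusp1 has 3 among the immediate early genes, and Klf9, Errfi1 and Sgk1 have 1 each there, at Klf6, Myc and Ier3.

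The receptor itself had its lowest median with ultrafine particles, beside close medians with coarse and fine particles. Nr3c1 had a lowest, median and highest level of 6.53, 6.72 and 6.82 in filtered air and of 5.72, 6.50 and 6.72 with ultrafine particles. With coarse particles they were 6.29, 6.57 and 6.71, with fine particles 6.48, 6.56 and 6.67, and the groups overlapped. The ultrafine minus filtered air difference was -0.26 (SE 0.10, adjusted p = 0.835 in limma) over 27 arrays and -0.19 (SE 0.06, adjusted p = 0.28) over 18, so it did not pass. The lowest value was on ultrafine 8, where Tsc22d3 was highest. Hsd11b1, the enzyme that regenerates active hormone inside cells, had a median level of 9.37 in filtered air, 9.16 with coarse, 9.24 with fine and 9.35 with ultrafine particles. Nr3c2 had medians of 6.35, 6.36, 6.36 and 6.33. Hsd11b2, H6pd and Abcb1b stood below the filter, with all group means between 5.53 and 5.71. None of the 3 genes kept from this list passed in any comparison.

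Pdk4, among the 22 kept genes of the other glucocorticoid targets, passed between groups over the 18 arrays. Pdk4 had a lowest, median and highest level of 7.25, 7.52 and 8.48 in filtered air, 7.94, 9.05 and 9.82 with coarse, 7.59, 7.90 and 8.20 with fine, and 7.25, 9.20 and 10.15 with ultrafine particles. Over 27 arrays 0 of the 22 genes passed in limma, with 4 to 6 of them at an unadjusted p under 0.05 for coarse and ultrafine particles against filtered air. Over 18 arrays Pdk4 rose by 1.70 with coarse (adjusted p = 0.0122) and by 1.81 with ultrafine particles (SE 0.23, 3.50-fold, adjusted p = 0.000726) against filtered air, and all 5 ultrafine arrays, at 9.12 to 10.15, lay above the 6 filtered air arrays. These groups did not overlap, in either direction, for 1.3% of all probes. Beside the coarse value stood the skeletal muscle markers, with 6 of 6 kept markers higher in coarse than in filtered air, a median difference of 0.96 and 0 of 6 passing in limma (4 at an unadjusted p under 0.05), and their mean was 8.90 on coarse 6 of the 3 coarse arrays. Of 8 kept adipocyte markers, Lipe (hormone-sensitive lipase, found in muscle too) was the 1 that passed in ultrafine against filtered air, with 0.94 (SE 0.14, adjusted p = 0.00159). The mean of the adipocyte markers ran from 6.67 to 7.69 on the 5 ultrafine arrays and from 6.55 to 8.26 on the 6 filtered air arrays, and the part of either marker list in these levels was not tested.

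Pdk4 also differed by 1.68 between coarse and fine (adjusted p = 0.0186) and by -1.79 between fine and ultrafine particles (adjusted p = 0.00181). When each of the 18 arrays was left out in turn, its calls in ultrafine against filtered air and in fine against ultrafine were made in 18 of 18 fits. The call in coarse against filtered air was lost without coarse 3 or coarse 4 (adjusted p = 0.0937 and 0.123), and in coarse against fine without coarse 3, coarse 4, fine 1, fine 5 or fine 6 (up to 0.21). Angptl4, a secreted inhibitor of lipoprotein lipase, had a mean level of 5.69 in filtered air, 6.33 with coarse, 5.77 with fine and 6.43 with ultrafine particles over 27 arrays. Its means in filtered air and fine lay below the brightness filter of 5.79, so it passed that filter through the groups where it was high. Its ultrafine minus filtered air difference was 0.74 (adjusted p = 0.114) over 27 arrays and 0.95 (adjusted p = 0.00458) over 18, and neither is taken as support, given that filter. Ddit4, which restrains mTOR, and Anxa1, an anti-inflammatory protein, did not pass. Ddit4 had a fine minus ultrafine difference of -0.70 over 27 arrays and -0.67 over 18 (adjusted p = 0.0657 and 0.207). Anxa1 had a fine minus filtered air difference of -0.53 and -0.51 (adjusted p = 0.526 and 0.389).

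In the remaining lists of pathway genes none passed in any comparison over 27 or 18 arrays. These were 9 kept chaperones and coregulators of the receptor, 11 partners of the members in other pathways, 17 immediate early genes, 6 genes of the interleukin 6 response, 4 p53 targets and 9 clock genes. The smallest adjusted p among them over 27 arrays belonged to Ccnd1 (cyclin D1), with 0.0506 in the test of any difference. Its median level was 8.92 in filtered air, 8.17 with coarse, 8.81 with fine and 8.30 with ultrafine particles. Bhlhe40, a clock repressor, had medians of 8.32, 7.98, 8.44 and 7.89 (any difference, adjusted p = 0.528). On the 20 arrays kept by a wider limit it passed in fine against ultrafine particles, with 0.48 (SE 0.10, adjusted p = 0.0158), as did the glucocorticoid target Sult1a1, with -0.82 (SE 0.19, adjusted p = 0.0438). In that comparison 129 probes (1.11%) passed, among them the macrophage marker Cd163 (-0.30, adjusted p = 0.0453) and the endothelial marker Esam (-0.40, adjusted p = 0.0307), and their part was not tested. Myc had 6.54, 6.85, 6.50 and 6.99 (adjusted p = 0.528). Of the chaperones, Fkbp4 had the smallest p, with a fine minus ultrafine difference of 0.19 over 27 arrays and 0.09 over 18 (adjusted p = 0.2 and 0.717). Of the p53 targets, Ccng1 had an ultrafine minus filtered air difference of -0.46 and -0.17 (adjusted p = 0.883 and 0.687).

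The genes most like the members as a group, and like each member, were named by r over arrays with group means subtracted, as a description. The mean of the 5 standardized members was most like Cfap141 (0.85), Slc25a26 (0.80), Rsrp1 (0.79), Ccnl1 (0.79) and Scyl2 (0.78) over 27 arrays. Over 18 arrays Coq9 (0.92), Coq3 (0.92), Pdcd11 (0.92), Slc25a26 (0.92) and Ndufa10l1 (0.90) led, with Slc25a26 alone in both sets. Tsc22d3 was most like Sgms1 in both, with r of 0.97 over 27 arrays and 0.95 over 18, where Per2 stood behind Slmap (0.94). Klf9 was most like Ppargc1b (0.92) over 27 arrays and Alkbh1 (0.94) over 18. Dusp1 was most like Ppp1r15a (0.88) over 27 arrays and Ccn1 (0.92) over 18, Errfi1 most like Luc7l3 (0.71) and Sv2a (0.87), and Sgk1 most like Ran (0.96) and Adck1 (0.83). All these arrays share a normalization.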

How the data were processed

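Rat heart RNA was measured on 27 Illumina bead arrays, left from 32 after the authors dropped 5 for weak hybridization, per the labels. The deposited values are on a log2 scale (5.12 to 14.17), made with lumi 1.5.17 at default settings per the submitters' processing notes and the labels. Sorted arrays differed by at most 0.0185, as after quantile normalization. A plain log2 and lumi's variance stabilizing transform could not be told apart. Bead-level and detection data were not analysed here, and precision is limited by how many arrays there were.

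Of 22226 probes, 13192 carried 1 gene symbol and 9034 none, and 13151 symbols matched RefSeq (41 did not). The 11657 probes with the highest mean were kept, the number the authors kept. The 4 groups were fitted in 1 model with limma 3.58.1 under R 4.3.3 (lmFit, eBayes), with p-values adjusted by Benjamini-Hochberg over all kept probes and called under 0.05. Correlations used group means subtracted and 100000 resamples within groups (numpy 2.4.6). Arrays stood apart when their lymphocyte marker mean exceeded the median by more than 3 median absolute deviations (MAD), or when their median correlation fell under 0.949. Named were all members, all genes of the receptor list and, of each other list, the genes called or up to 4 with the smallest p over the groups, along with the correlation partners that passed and those named as near misses, which were chosen after their values were seen. Likeness to Fkbp5, part of the rule, was void without a probe. The members, the lists and the tests were chosen with earlier results of these data known. Array numbers were not taken to pair the samples, so the main fits and the correlations held no term for them. The fit and the correlation were tested on simulated data.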

Additional observations from a re-analysis of the deposited data

Results flagged for a closer look

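Values far from the others of their group were looked for in 160 groups of the members and named genes, and 15 were found, where chance gives about 1 in 20. Sgk1 was high on filtered air 1 (9.67) and coarse 1 (10.58), both high in lymphocyte markers. On filtered air 1, Bmal1 (6.01) and Nfatc3 (7.14) were the highest and Ccng1 (11.41) and Tef (6.26) the lowest of the group. On coarse 1, Myc (7.49) and Nrip1 (7.90) were the highest and Bhlhe40 (7.13) the lowest, and on coarse 2 Mdm2 was the lowest (7.14). On ultrafine 8, Nr3c1 (5.72) and Bax (5.46) were the lowest of the group. The other 3 were on arrays that did not stand apart, namely Angptl4 on filtered air 5 (6.09), Bax on filtered air 7 (6.28) and Pim1 on ultrafine 5 (6.54), each the highest of its group.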

How the results depend on the processing

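Over all alternatives of filter, normalization, variance model, samples and arrays, 262 counts of members called stayed at 0 and 3 did not. The 3 came with array weights, which called 1 member, Errfi1, in coarse against fine, in fine against ultrafine and in the test of any difference, where 55, 815 and 394 probes of the table were called. The replicate block, with the number of each array in the labels as a block, called 0 members in every comparison and 0 to 51 probes of the table. With the block the limma p of Klf9 was 0.0029 for coarse and 0.00777 for fine against filtered air, beside 0.042 and 0.0751 without it. That of Errfi1 in coarse against fine was 0.000368 (adjusted p = 0.186), beside 0.00277. That of Sgk1 in fine against ultrafine went the other way, to 0.0535 from 0.0182. The numbers were not taken to pair the samples, because not every same-numbered pair correlated over 0.1. A block shared by only some of the pairs would fail that rule too, so it does not show that the samples were unpaired. Of 37 such pairs 23 did (median 0.34), against 98 of 235 others (median 0.0083), and 6 of 27 arrays correlated best with their own number. Same-numbered arrays were thus more alike by the median, and whether they shared a step of the work was not tested. The permutation tests of the correlations resampled within groups and took no account of the numbers. A wider limit of 10 median absolute deviations, chosen after seeing the data, left 20 arrays and called 0 members.

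Centring on cardiomyocyte markers moved the median of all probes by 0.25 in coarse and 0.32 in ultrafine particles against filtered air, by 0.27 in coarse against fine, and by -0.35 in fine against ultrafine. With it Dusp1 and Klf9 changed sign, uncalled, in ultrafine against filtered air (0.08 and 0.17) and in coarse against fine (0.21 and 0.20). Of the 10 pairs of members, the 1 called by Pearson's r over all 27 arrays was Sgk1 with Dusp1. Without the arrays that stood apart 0 were called by Pearson's r, and this pair had an r of opposite sign, 0.49. Leaving out each array gave 0 to 3 calls, with 0 without coarse 1, ultrafine 2 or ultrafine 7 and 3 without ultrafine 8. The cause was not tested. With 3 coarse arrays left of 6, an exact test against 4 fine arrays cannot go below 0.0286.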
